A study of Mus musculus with 4 samples.

Results

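Open chromatin was examined at 8 genes for transcription factors of the paraventricular nucleus of the hypothalamus (PVH) lineage: Otp, Sim1, Arnt2, Pou3f2, Foxp1, Foxp2, Dach1 and Nhlh2. They are 8 of 21887 protein-coding genes in the gene table. Every deposited ATAC-seq peak that overlapped a gene body on mm10, or 50 kb to either side of it, was taken. Peaks from any of the 4 libraries were joined where they overlapped by 1 bp or more, giving 57 regions at these genes of 67299 in all. ATAC-seq marks chromatin that a transposase can enter. All mice were homozygous for the floxed Otp allele (Otp fl/fl), carried Ai14, a Cre-dependent fluorescent reporter, and were given as 12 weeks old. They received AAV-GFP (control, 2 libraries) or AAV-Cre (2 libraries), an adeno-associated virus without or with the Cre recombinase that removes floxed sequence, and the PVH was dissected 4 weeks later. The labels name no sort of infected nuclei, no promoter for the virus, no sex and no number of animals per library. The spread between libraries may therefore be technical, and the share of nuclei that had lost Otp is unknown. The study asked whether loss of Otp in adults lowers accessibility near its targets.

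Otp encodes a homeodomain protein needed for neuroendocrine neurons of the PVH to form. Sim1, a bHLH-PAS protein, acts in the same lineage as a dimer with Arnt2. Pou3f2, also called Brn2, is a POU-domain factor required in the neurons that make vasopressin, oxytocin and corticotropin-releasing hormone. Foxp1 and Foxp2 are forkhead repressors, Dach1 is a nuclear cofactor of homeodomain proteins, and Nhlh2 is a bHLH factor of hypothalamic neurons linked to body weight. Such developmental regulators are often controlled by elements far from their start sites as well as by the promoter.

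The 4 lists held 23384 to 57682 peaks, the longest being AAV-GFP 1, and sequencing depth is unknown because the files hold no read counts. At the 8 genes AAV-GFP 1 had 42 peaks, AAV-GFP 2 had 20, AAV-Cre 1 had 18 and AAV-Cre 2 had 22. Per 1000 peaks of the list this was 0.728, 0.587, 0.770 and 0.827 in the same order, a mean of 0.657 ± 0.100 (SD, n = 2) for the control libraries and of 0.798 ± 0.0403 (SD, n = 2) for AAV-Cre. Thus the larger number in AAV-GFP 1 went with its longer list. The median fold enrichment at these genes, 4.88, 5.57, 4.82 and 5.34, lay below the list median of 5.59, 5.85, 5.72 and 5.77 in each library. The fold, here and below, is the ratio over background that the authors deposited for each peak. The markers of PVH neurons were Otp, Sim1, Avp, Oxt, Crh and Trh. Their gene ends gave peaks in all 4 libraries for 0 of 6, against 41.4% of protein-coding genes. Avp, which encodes vasopressin, had none in any library, as did 41.9% of protein-coding genes. Sim1 and Trh had peaks in both controls and neither AAV-Cre library (2 of 6, against 3.09%). Otp had them in all but AAV-Cre 1, Crh in AAV-GFP 1 and AAV-Cre 2, and Oxt in AAV-Cre 1 alone. Otp and Sim1 are also among the 8 genes, which were chosen with earlier results known. The Sim1 peaks were weak, at percentiles 71.7 and 94.4 of the control lists counted from the strongest peak, and overlapped another gene (below). The 2 of 6 is therefore not read as an excess. Of 5 markers of neighbouring nuclei, Pomc and Agrp had gene-end peaks in all 4 libraries (folds of 8.79 to 13.5), Hcrt in all but AAV-Cre 1, and Nr5a1 and Vip in none. Of 4 microglial and 4 endothelial markers, 0 and 0 had a gene-end peak in any library. Of 5 neuronal markers, Snap25 and Syt1 had one in all 4 libraries. Of 4 astrocyte markers Gfap did, and of 4 oligodendrocyte markers 0 did. The part that cell composition played in the results below was not tested.

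**Figure D1:**
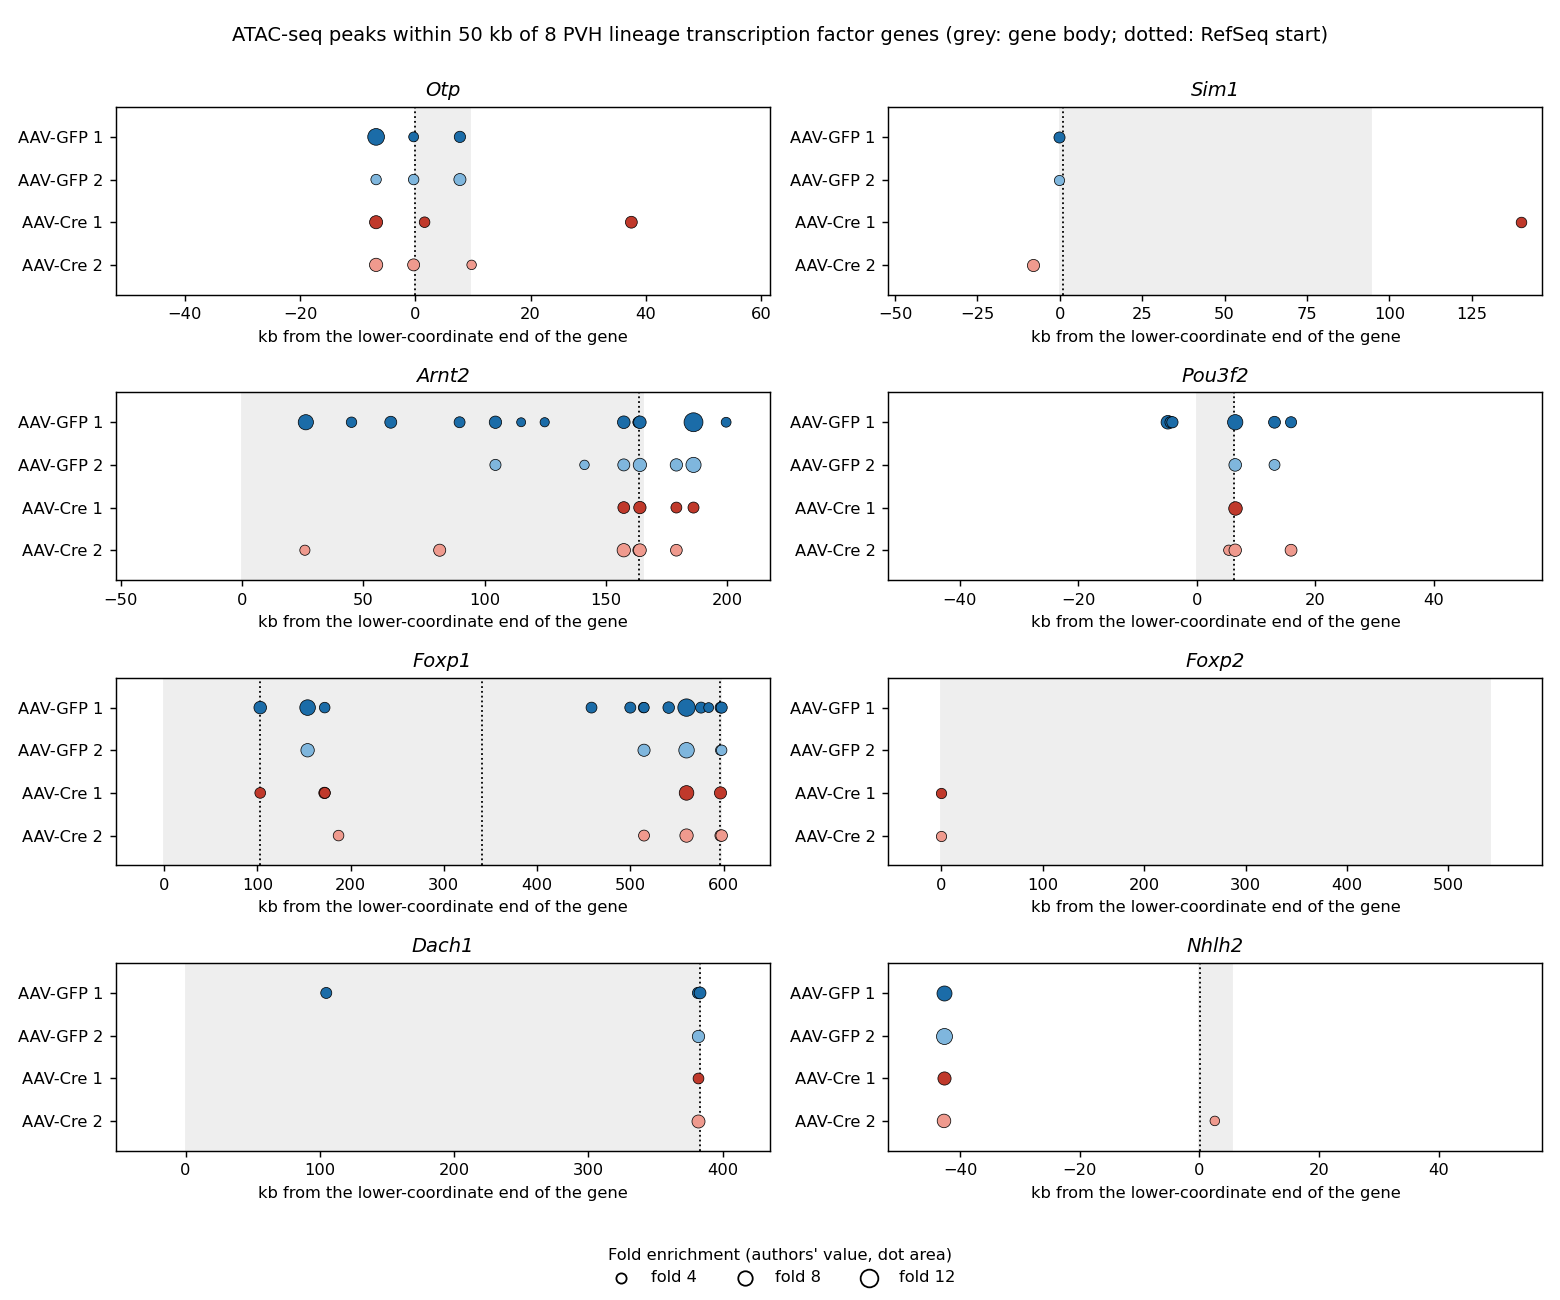
Peaks at the 8 genes by library, placed in kb from the lower-coordinate end of each gene. Grey marks the gene body, dotted lines the RefSeq starts, and dot area the authors' fold enrichment. Otp has 3 peaks in every library, but the dots line up in all 4 libraries only 6.5 kb upstream.

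The sequences before 4 of the start sites are printed below. Only bases outside the gene body of the gene table are printed, and among the RefSeq starts of the listed genes only these 4 had any. They run from a start open in every library to one open in none. The unprinted starts do not all follow the same order. That of Arnt2 had 31 CpG and a peak in 4 libraries, and the innermost of Foxp1 had 34 CpG and a peak in 2. Each is printed 5′ to 3′ on the strand of the gene, from RefSeq (build GRCm38.p6, the same build as mm10), with CpG dinucleotides in capitals. Pou3f2 is at chr4:22488367-22488616 on the minus strand, and a peak lay over its start window in 4 libraries. Otp is at chr13:94875386-94875635 on the plus strand, with a peak in 3 libraries. Dach1 is at chr14:98169766-98170015 on the minus strand, with a peak in 1 library. Nhlh2 is at chr3:102009895-102010110 on the plus strand, with a peak in 0 libraries. The start window runs from 250 bases before a start to 50 after it.
Pou3f2: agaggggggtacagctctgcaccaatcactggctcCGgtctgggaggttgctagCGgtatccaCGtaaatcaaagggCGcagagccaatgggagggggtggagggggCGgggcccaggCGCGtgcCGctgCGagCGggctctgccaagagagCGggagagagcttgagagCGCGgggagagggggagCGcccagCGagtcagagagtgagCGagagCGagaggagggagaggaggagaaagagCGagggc
Otp: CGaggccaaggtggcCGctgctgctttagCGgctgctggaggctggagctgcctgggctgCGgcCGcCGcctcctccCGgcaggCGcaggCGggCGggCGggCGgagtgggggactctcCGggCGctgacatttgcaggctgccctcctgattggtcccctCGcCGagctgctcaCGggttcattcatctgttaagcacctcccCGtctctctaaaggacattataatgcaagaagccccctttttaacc
Dach1: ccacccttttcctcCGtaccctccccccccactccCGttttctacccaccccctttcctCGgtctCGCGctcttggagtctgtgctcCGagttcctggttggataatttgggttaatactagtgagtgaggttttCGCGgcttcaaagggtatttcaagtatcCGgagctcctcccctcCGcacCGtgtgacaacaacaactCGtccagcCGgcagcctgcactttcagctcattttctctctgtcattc
Nhlh2: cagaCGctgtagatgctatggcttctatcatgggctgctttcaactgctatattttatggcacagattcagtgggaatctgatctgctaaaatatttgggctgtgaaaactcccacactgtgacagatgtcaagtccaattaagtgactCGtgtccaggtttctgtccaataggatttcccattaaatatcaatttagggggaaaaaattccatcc
Counted over the full 250 bases, Pou3f2 and Otp each had 18 CpG, Dach1 had 13 and Nhlh2 had 2.

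At Otp, the floxed gene itself (chr13:94875636-94885125, plus strand), each of the 4 libraries held 3 peaks, yet they fell in 6 different regions. The labels do not say which part of Otp is floxed, so peaks there do not test the deletion. The 1 region common to all libraries lay 6.5 kb upstream of the start, at chr13:94868573-94869090. Its fold enrichment was 10.7 in AAV-GFP 1, 4.18 in AAV-GFP 2, 6.57 in AAV-Cre 1 and 6.76 in AAV-Cre 2. By −log10 p it stood at percentiles 15.3, 89.4, 38.8 and 38.4 of these lists, counted from the strongest peak. Both AAV-Cre values lay between the controls, so the groups overlapped. At the start, chr13:94875130-94875565 had folds of 3.73 and 4.22 in the controls and 5.52 in AAV-Cre 2, with no peak in AAV-Cre 1. Among control peaks it was weak (percentiles 92.5 and 92.6), and in AAV-Cre 2 it stood at 62.5. Inside the gene, 7.5 kb downstream of the start, chr13:94883175-94883578 had peaks in both controls alone, at percentiles 68.7 and 58.1. AAV-Cre 1 alone had peaks 1.5 and 37.4 kb downstream of the start, and AAV-Cre 2 alone had 1 just past the far end of the gene at percentile 99.6. The authors' control group list held 3 Otp peaks and their AAV-Cre group list 1, the upstream region, with deposited folds of 9.22 and 8.43.

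Sim1 and Arnt2, the genes of the 2 dimer partners, had unlike patterns. Sim1 (chr10:50894698-50989156, plus strand) had 1 peak in each library, and these fell in 3 regions. The region at chr10:50894310-50894660 had peaks in both controls alone, with folds of 4.73 and 4.03 at percentiles 71.7 and 94.4. It lay 37 bp outside Sim1, 990 bp upstream of the RefSeq start, and overlapped the end of the lncRNA gene A230054N11Rik, so it cannot be assigned to Sim1 alone. The start window itself had a peak in 0 libraries. Sim1 had no region within the gene beyond 1 kb of its ends. The remaining peaks were 9.0 kb upstream in AAV-Cre 2 (fold 5.72) and 45.3 kb past the gene in AAV-Cre 1 (4.31).

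Arnt2 (chr7:84246274-84411741, minus strand) had 17 regions, the same number as Foxp1. Its start lay in a region open in all 4 libraries, chr7:84409947-84410619, with folds of 6.01 and 6.77 (controls) against 5.84 and 6.27 (AAV-Cre). The folds overlapped between groups. The list percentiles, 27.9 and 29.1 against 39.4 and 34.0, did not, but they come from lists of different lengths, and over shared regions (below) the order was the opposite. A region inside the gene 6.2 kb downstream, chr7:84403458-84403836, was also open in all, at 6.12, 5.53, 5.36 and 6.82. Upstream of the start the libraries parted. At 22.2 kb upstream, chr7:84432207-84432541 had folds of 13.7 and 8.81 in the controls, 4.66 in AAV-Cre 1 and no peak in AAV-Cre 2. Its list percentiles were 8.0, 24.1 and 81.7, and the authors' pooled control list gave it 12.2 while their pooled AAV-Cre list lacked it. It lies within the gene model Gm31284. In AAV-GFP 1 the Arnt2 peak there was the strongest at any of the 8 genes. By −log10 p, a Foxp1 peak (20.0) and the Nhlh2 upstream peak (19.4) exceeded the Arnt2 peak (17.3) in AAV-GFP 2. In the control group list a Foxp1 peak exceeded it (48.1 against 41.4). Control regions of like strength were those whose weaker control percentile lay within 5 points of that of this Arnt2 region. Of 3081 such regions, 20.4% were missing from at least 1 AAV-Cre library. At 15.1 kb upstream, chr7:84425100-84425532 had no peak in AAV-GFP 1 and folds of 5.84 in AAV-GFP 2, 4.56 in AAV-Cre 1 and 5.27 in AAV-Cre 2. There the authors' AAV-Cre group list held a peak (5.58) and the control group list none. Deeper in the gene, 59.2 kb from the start, chr7:84350666-84350857 had peaks in the controls alone (5.86 and 4.77). A strong peak of AAV-GFP 1 alone, at chr7:84272494-84272769 with a fold of 8.83 and a percentile of 19.7, lay beside a weak one of AAV-Cre 2 alone at chr7:84272113-84272380 (3.97). These did not touch and were counted apart.

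At Pou3f2 (chr4:22482095-22488366, minus strand), the start was open in every library. The region chr4:22488273-22488849 had folds of 8.97 and 6.10 (controls) against 7.04 and 5.95 (AAV-Cre), with list percentiles of 9.9, 38.7, 19.4 and 34.7. The spread within a group exceeded the difference between groups. Inside the gene, 0.8 kb downstream of the start, chr4:22487362-22487593 had a peak in AAV-Cre 2 alone (4.09). Of the distal regions, chr4:22495067-22495306, 6.7 kb upstream, had peaks in the controls alone (5.41 and 4.59). Another at 9.5 kb upstream was shared by AAV-GFP 1 and AAV-Cre 2, with folds of 4.76 and 5.41. Past the far end of the gene, AAV-GFP 1 alone had 3 peaks 4.0 to 4.8 kb away, the strongest with a fold of 7.09.

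The forkhead genes Foxp1 and Foxp2 are both very long and differed in how many regions they held. Foxp1 (chr6:98925342-99522746, minus strand) spans 597.4 kb and had 17 regions. Foxp2 (chr6:14901349-15441977) spans 540.6 kb and had 2, each with a peak in 1 library. The 557 protein-coding genes of at least 300 kb had a median of 15 regions in the same window (quartiles 9 and 24), and 26 of them had as few as Foxp2. At Foxp2, AAV-Cre 2 had a peak at chr6:14900562-14900903 (fold 4.07) and AAV-Cre 1 a different one at chr6:14901421-14901558 (4.11). Both stood among the weakest of their lists, at percentiles 94.2 and 92.2, and the controls had 0 peaks. Read by gene ends, Foxp2 would count as open in both AAV-Cre libraries and neither control. Read by position, no region of it was shared by the AAV-Cre libraries unless peaks up to 1000 bp apart were joined, a setting chosen after the data were seen.

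At Foxp1 the strongest region lay inside the gene, 34.9 kb downstream of the outermost RefSeq start, at chr6:99485183-99486072. Its folds were 11.6, 9.17, 8.14 and 6.82 in the order AAV-GFP 1, AAV-GFP 2, AAV-Cre 1 and AAV-Cre 2. Both control folds were above both AAV-Cre folds, but folds of separate lists are not on a common scale, and its rank is compared over shared regions below. The summits of the 4 libraries lay within 48 bp of each other. Near the outermost start, 0.8 kb upstream, chr6:99521779-99522333 was open in all 4 libraries, at 4.48, 3.88, 5.66 and 4.79. Further upstream, chr6:99522572-99522755, over the gene end, had a peak in AAV-GFP 1 alone (3.56). Just outside the gene, chr6:99523148-99523465 had folds of 4.78 and 4.21 in the controls and 5.14 in AAV-Cre 2, with no peak in AAV-Cre 1. The authors' control group list held that last region (4.80) and their AAV-Cre group list did not. Of the 3 RefSeq starts of Foxp1, the outermost and the middle one had a peak in 0 libraries. The innermost had chr6:99028115-99028674 over it in AAV-GFP 1 (6.06) and AAV-Cre 1 (4.40). Inside the gene, 50.7 kb upstream of that innermost start, chr6:99079039-99079350 had peaks in the controls alone, with folds of 9.32 and 6.88 and percentiles of 22.9 and 45.1. The authors' group lists gave 9.88 for the control pool and no peak for the AAV-Cre pool. Of 3142 control regions of like strength, 22.8% lacked a peak in either AAV-Cre library.

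Dach1 and Nhlh2 had few regions, and 1 of each was shared by all libraries. Dach1 (chr14:97786846-98169765, minus strand, 382.9 kb) had 3 regions, and 38 of the 557 long genes had as few. Its shared region, chr14:98168156-98168838, lay in the gene 0.9 kb downstream of the start, with folds of 4.93, 5.86, 4.46 and 6.50. The groups overlapped. Within it the peaks differed in place: AAV-GFP 2 covered all 683 bp, whereas AAV-Cre 1 covered 246 bp and AAV-Cre 2 covered 251 bp that did not overlap each other. Both AAV-Cre peaks ended more than 1 kb inside the gene, so by gene ends Dach1 counts as open in the controls alone, while by region it does not. Only the longer AAV-GFP 2 peak joins them. The start window itself, which also overlaps the gene model Gm33583, had a peak in AAV-GFP 1 alone (5.35). Nhlh2 (chr3:102010111-102015492, plus strand) had a shared region 42.5 kb upstream at chr3:101967174-101967618. There the control folds were 8.64 and 9.78, those of AAV-Cre 6.66 and 7.07, and the 4 summits lay within 21 bp. The list percentiles, 24.2 and 20.2 against 39.7 and 34.9, also set the groups apart. Folds and percentiles of separate lists are not on a common scale, and over shared regions (below) the groups overlapped. No other gene of the table lay within 50 kb of Nhlh2. A weak peak inside Nhlh2 was seen in AAV-Cre 2 alone (3.52, percentile 99.4).

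**Figure D2:**
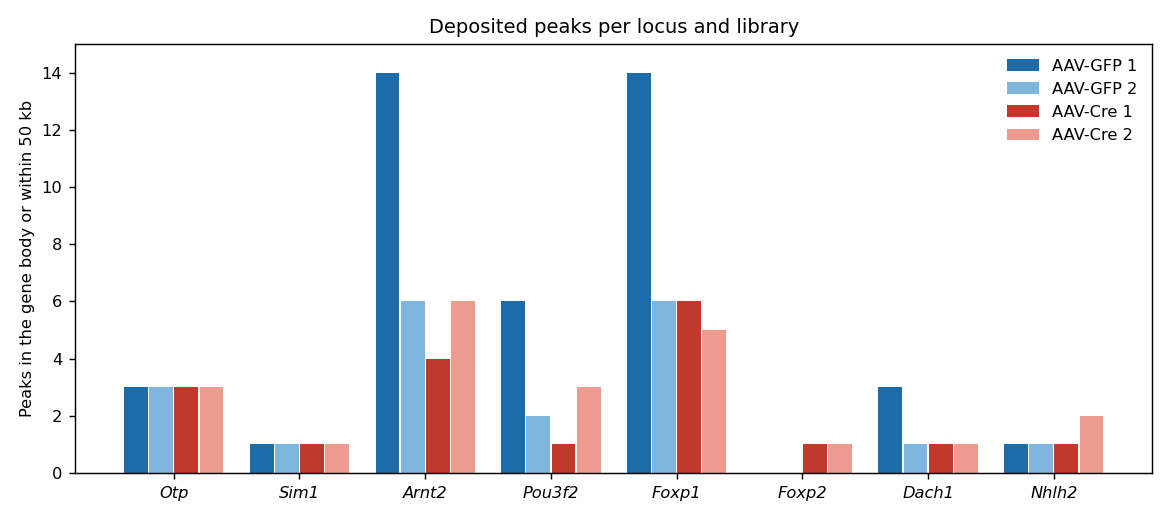
Number of deposited peaks in the gene body or within 50 kb, for each gene and library. Bars start at 0. Otp and Sim1 have equal bars in all libraries, and the tall bars of Arnt2 and Foxp1 are those of AAV-GFP 1, at 14 peaks each.

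No gene differed in its number of peaks beyond what 2 libraries against 2 can show. By an exact 2-sided permutation test, whose smallest p is 0.333, Foxp2 reached 0.333 (0 and 0 peaks against 1 and 1) and the other genes had p from 0.667 to 1. Arnt2 had 14 and 6 peaks in the controls against 4 and 6, and Foxp1 had 14 and 6 against 6 and 5. For both genes the excess was in AAV-GFP 1. When only the 23384 strongest peaks of a list were kept, the length of the shortest list, the mean difference of AAV-Cre from control turned from -4.5 to 2 at Foxp1. It turned from -2 to 0.5 at Pou3f2 and from -1 to 0.5 at Dach1. At Otp the counts became 1 and 1 against 3 and 2, and at Sim1 0 and 0 against 1 and 1, so for both the exact p fell from 1 to 0.333, the smallest possible. At equal length the 8 genes had 11 and 12 control peaks against 18 and 17 for AAV-Cre, a setting that removes no peak from AAV-Cre 1 and most from AAV-GFP 1.

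Few regions were held in common. Of the 57 regions, 8 (14.0%) had a peak in all 4 libraries, against 21.7% of all regions, and 36 (63.2%) had one in a single library, against 48.8%. AAV-GFP 1 alone held 21 regions (36.8%, against 34.9%) and AAV-GFP 2 alone held 1 (1.75%, against 5.95%). AAV-Cre 1 alone held 6 (10.5%, against 3.4%) and AAV-Cre 2 alone held 8 (14.0%, against 4.61%). The 14 regions of a single AAV-Cre library were weak, all between percentiles 57.0 and 99.6 of their list. By position, 12 regions lay within 1 kb of a gene end, 32 deeper inside a gene and 13 outside. The Arnt2 start counts among the 32, since the gene table ends beyond the RefSeq start. Regions at the 8 genes were placed by their own gene, but all regions by any protein-coding gene, so the shares that follow rest on unlike rules. Of the 12 at gene ends 3 (25%) were open in all libraries, against 55.0% of all regions at the ends of protein-coding genes. Inside genes 3 of 32 (9.38%) were, against 13.0%, and outside 2 of 13 (15.4%), against 11.9%.

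**Figure D3:**
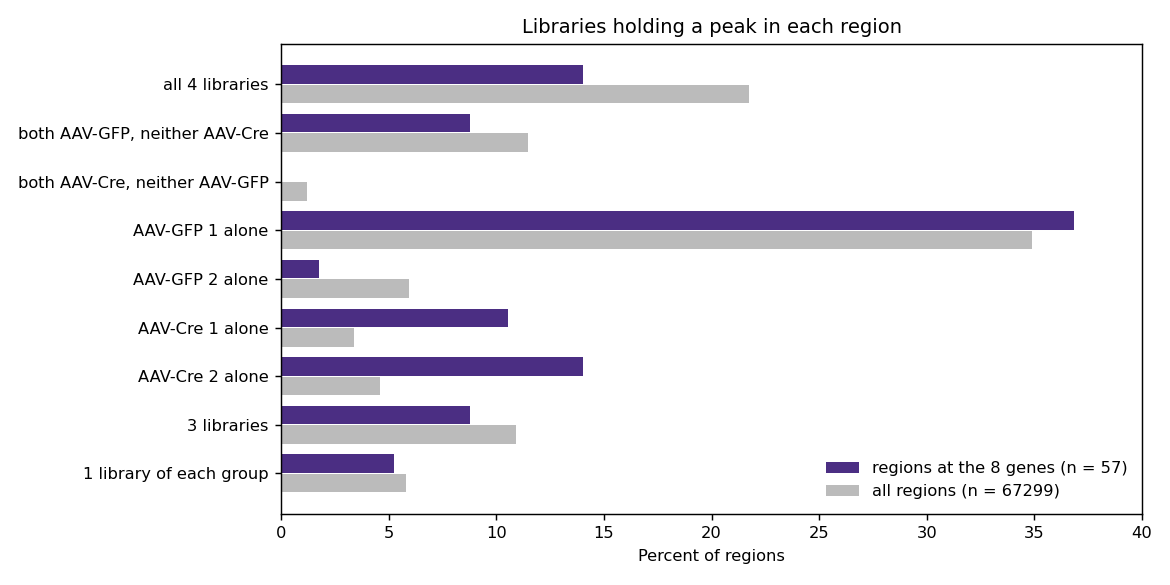
Percent of regions with a peak in the libraries named, for the 57 regions at the 8 genes (purple) and all 67299 regions (grey). The bar for a peak in all 4 libraries is shorter at these genes, and those for a single AAV-Cre library are longer.

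Peaks in both controls with none in either AAV-Cre list marked 5 regions, 1 each at Otp, Sim1, Arnt2, Pou3f2 and Foxp1. They were 8.77% of the 57 regions, against 11.5% of all regions. The converse was seen at 0 regions, against 1.18% of all. Counted over the 17 regions with a peak in both controls, 29.4% lacked a peak in either AAV-Cre list, against 27% of all such regions. Of 9 regions in both AAV-Cre lists, 0 lacked a peak in either control, against 4.8%. The share of control regions without an AAV-Cre peak was thus near the background. Among control regions of like strength, absence from both AAV-Cre lists was common for 4 of the 5, at 47.3% for Otp, 64.7% for Sim1, and 49.0% for each of Arnt2 and Pou3f2. Foxp1, at 22.8%, was the exception. The authors' control group list held all 5 and their AAV-Cre group list 0. Of the 5, only that of Foxp1 was still control-specific once lists were equalised or peaks under a −log10 q of 5 were dropped, since each of the other 4 lost a control peak under both settings.

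The 8 regions open in all libraries allow ranks to be compared over a common set, the 14634 such regions of the genome. By −log10 p, 0 of the 8 ranked weaker in both AAV-Cre libraries than in both controls, against 19.7% of all shared regions. For 3 of the 8 (37.5%) both AAV-Cre ranks were stronger, against 19.8%. These were the start of Arnt2, the region in Arnt2 6.2 kb downstream, and the region of Foxp1 0.8 kb upstream of its outermost start. In Arnt2 6.2 kb downstream, the percentiles were 82.0 and 86.1 (controls) against 69.6 and 55.0 (AAV-Cre), a shift of -21.8 points. At the Arnt2 start they were 76.0 and 60.0 against 57.3 and 55.8, so AAV-GFP 2 and AAV-Cre 1 differed little. Near the Foxp1 start they were 97.0 and 98.7 against 68.3 and 90.3, among the weakest shared regions in the controls. A region so weak in the controls has little room to rank weaker and still hold a peak in all 4 libraries. The 19.7% and 19.8% cover shared regions of every strength, and shares for regions of like strength were not computed. The counts of 0 and 3 are therefore not read as a trait of these genes. Across all shared regions the shift had an SD of 16.4 points, so only the Arnt2 region 6.2 kb downstream and the Foxp1 region (-18.6), together with the Otp upstream region, shifted by more than 1 SD. At Otp the shift was -16.5, with percentiles of 52.2 and 98.6 against 56.6 and 61.3, and the controls differed by 46.5 points. The exact p cannot fall below 0.333 for any of them.

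The other 4 shared regions had overlapping groups. At the Pou3f2 start the percentiles were 36.6 and 72.7 (controls) against 30.3 and 56.7 (AAV-Cre). In Foxp1 34.9 kb downstream they were 35.9 and 43.3 against 33.6 and 55.0, and the lower AAV-Cre folds given above did not go with a lower rank in AAV-Cre 1. Upstream of Nhlh2 they were 70.4 and 44.8 against 57.7 and 57.1, a shift of -0.162. In Dach1 they were 96.8 and 88.0 against 94.7 and 68.6.

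**Figure D4:**
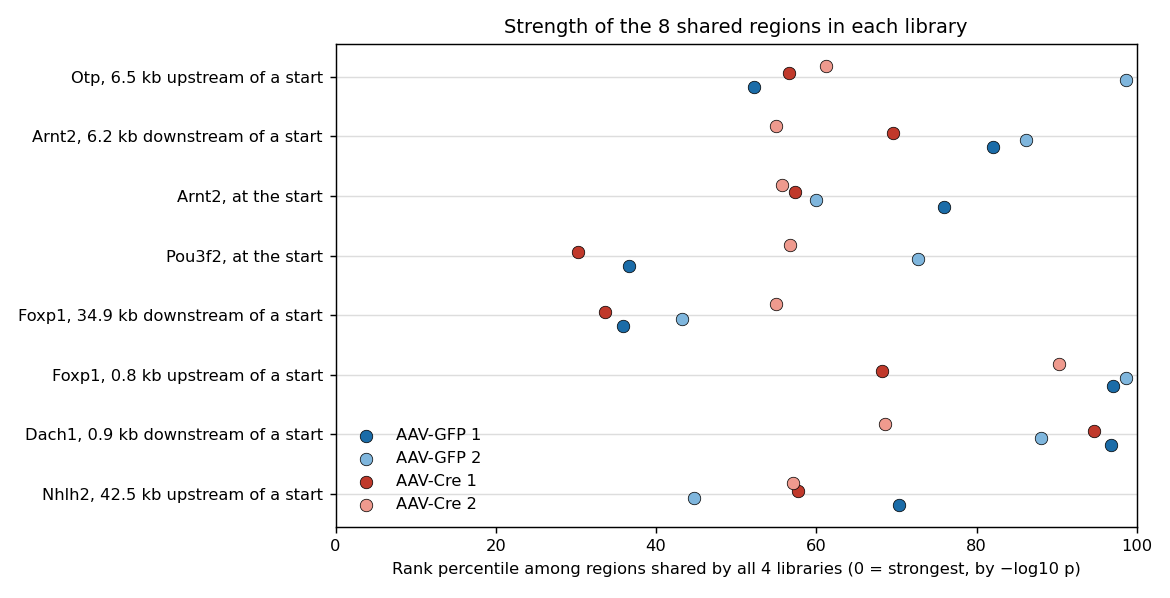
Rank percentile by −log10 p of the 8 regions open in all libraries, among 14634 such regions (0 is the strongest). Each dot is 1 library. AAV-Cre dots (red) lie left of both AAV-GFP dots (blue) in 3 rows, and in 0 rows do both lie right of them.

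Peaks over start sites were set beside the CpG content of the sequence before them. RefSeq gave 9 start windows for 7 of the genes. Peaks in all 4 libraries lay over 2 of the 9, those of Arnt2 (31 CpG in the 250 bases) and Pou3f2 (18 CpG), against 25.8% of all 32851 windows. Windows without a peak in any library numbered 4, against 59.5%. They were those of Sim1 (11 CpG), Nhlh2 (2) and the outermost and middle starts of Foxp1 (11 and 3). Among all windows, a peak in all 4 libraries was seen over 1.82% of those with 0 to 4 CpG, 46.4% of those with 10 to 14 and 63.3% of those with 15 to 19. With 20 or more it was 63.0%. The innermost Foxp1 start, with 34 CpG, had a peak in 2 libraries. These are descriptions of sequence and say nothing of what opened a start.

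**Figure D5:**
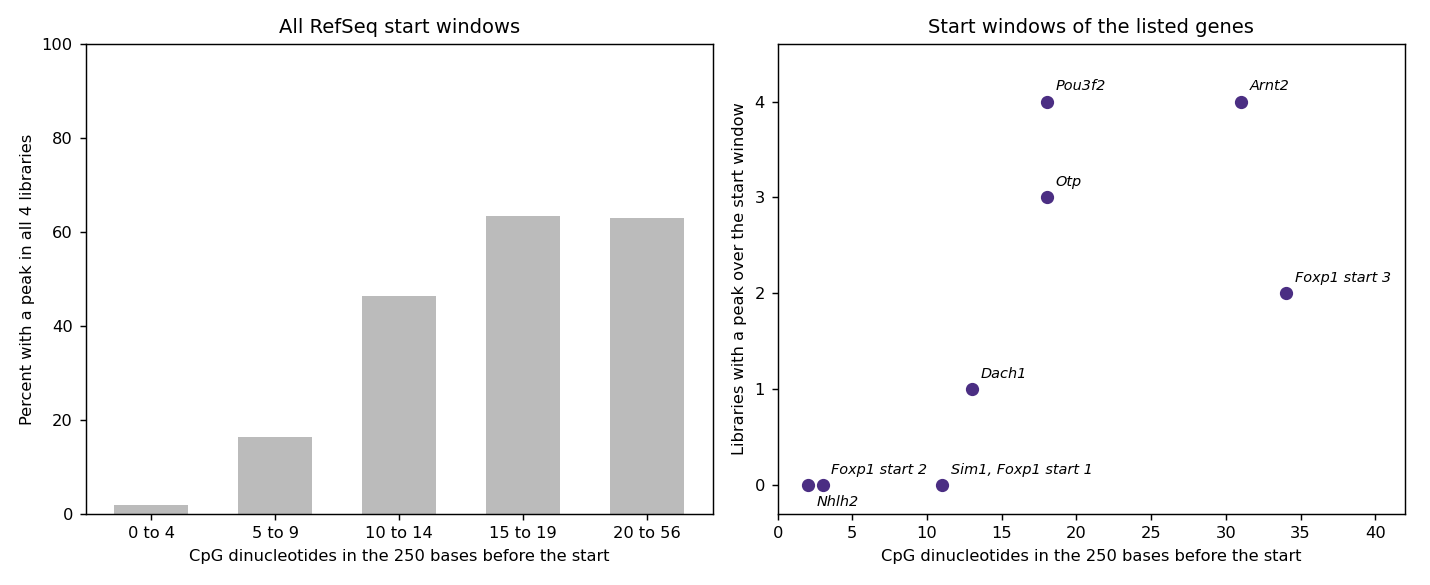
Left: percent of all 32851 RefSeq start windows with a peak in all 4 libraries, by number of CpG in the 250 bases before the start. Right: the 9 windows of the listed genes, each dot 1 window, by CpG number and number of libraries with a peak (Foxp1 starts 1 to 3 run from the outermost to the innermost). Windows at 11 CpG or fewer have 0.

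In the same 250 bases, 7 motifs were searched on both strands. ACGTG, the core bound by bHLH-PAS dimers such as that of Sim1 and Arnt2, was found in 1 of the 9 windows, that of Pou3f2, as CACGT 189 to 185 bases before the start. It was held by 16.6% of all windows. GGGGCGGGG, the GC box, was also found there, 147 to 139 bases before the start (10.4% of all windows). TAATTA, the homeodomain core, was found before the middle start of Foxp1, which had no peak (4.84% of all). ATGCAAAT, the POU octamer (1.60%), TGTTTAC, the forkhead site (3.17%), the E-box CAGCTG (13.0%) and the cyclic AMP response element TGACGTCA (1.55%) were in none of the 9. None of these motifs overlaps another where found.

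Further genes of the same families or of hypothalamic patterning, 28 in number, were read by peaks within 1 kb of their gene ends. Of these, 4 had a peak in all 4 libraries, against 41.4% of protein-coding genes, and 17 had none, against 41.9%. For 0 of the 28 was there a peak in both controls and neither AAV-Cre library (3.09% of all genes), and for 0 the converse (0.0868%). By the same reading, 2 of the 8 listed genes (Sim1 and Dach1) had the first pattern and 1 (Foxp2) the converse. By region, as given above, neither Dach1 nor Foxp2 did. The gene-end reading can also miss an open start. By it Arnt2 had no peak, though its RefSeq start was open in all 4 libraries. Among the 28, Nkx2-2 had a gene-end peak in AAV-Cre 1 alone (5.22). Those open in all were Arnt, the widely expressed relative of Arnt2, with folds of 9.96 to 20.8, Pou3f1 (4.33 to 6.35), Pou3f4 (5.52 to 11.5) and Rax (4.76 to 8.86). The POU relatives of Pou3f2 were thus open at their ends in every library, apart from Pou3f3, which lacked a peak in AAV-Cre 1. Sim2 and Nhlh1, the relatives of Sim1 and Nhlh2, had none at their ends. Dach2 had one in AAV-GFP 1 (8.39) and AAV-Cre 2 (4.42), and Foxp4 in all but AAV-Cre 1.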

How the data were processed

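ATAC-seq peaks were used from 2 AAV-GFP and 2 AAV-Cre libraries. The tools named in the submitters' processing notes are FastQC, Trim Galore, MACS2 and Bowtie2, and the build is mm10. Their versions and thresholds were not given in the sources used here. For each library, the authors deposited 1 peak list, plus 1 per group, and the peak names mark the group lists as called on pools. Their columns hold start, end and summit, a score, fold enrichment (a ratio), and −log10 p and −log10 q. The deposited fold and −log10 p values were used only to describe and rank peaks within their list. Gene positions and start windows came from RefSeq tables of the same build (GRCm38.p6).

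Peaks sharing at least 1 bp were merged with Python 3.11.15 and pandas 2.3.3, and merging was tested on simulated lists. Windows of opposite strands that overlap were reverse complements in 1670 of 1670 checks. The 8 genes and the further gene lists were chosen with earlier results of these data known. All 8 genes were named. The regions named were those near a gene end or start, those in both libraries of 1 group alone, and the 3 strongest. Other regions and gene relatives that are named were chosen after their values were seen. Depth is unknown, so no intervals are given.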

Additional observations from a re-analysis of the deposited data

How the results depend on the processing

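Each count is given with its number of regions and the share of all regions of the genome under the same setting. Control-specific regions were 5 of 57 (11.5% of all). They became 1 of 29 (5.41%) with lists equalised and 9 of 18 (45.8%) in the authors' group lists. With a −log10 q minimum of 5 they were 2 of 26 (14.2%), in Foxp1 and 22.2 kb upstream of Arnt2. The Arnt2 region joined because its AAV-Cre 1 peak, with a −log10 q of 3.34, was dropped. Leaving out a library gave 6 to 26: 26 of 57 (49.4%) without AAV-GFP replicate 2 and 8 of 49 (18.1%) without AAV-Cre replicate 2. Cre-specific regions, 0 of 57 (1.18%), became 1 of 29 (4.6%; Foxp1) with lists equalised, 1 of 18 (6.26%; Arnt2) in the group lists and 1 of 75 (1.18%) with a flank of 100 kb. They became 1 of 44 (1.24%; Foxp2) with peaks at most 1000 bp apart joined, a setting chosen after the data were seen. Without a library they were 0 to 8: 8 of 51 (6.05%) without AAV-Cre replicate 1, 6 of 49 (4.88%) without AAV-Cre replicate 2 and 1 of 57 (1.6%) without AAV-GFP replicate 2. With a library left out, 3 lists decide a call instead of 4.

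Shared regions weaker in both AAV-Cre libraries, 0 of 8 (19.7%), became 1 of 12 (19.7%) with a flank of 100 kb and 1 without any 1 library, of 7 to 11 (32.2% to 36.6%). Those stronger, 3 of 8 (19.8%), became 1 of 5 (19.8%) with the q minimum. Leaving out a library gave 4 to 6, of 7 to 11 (32% to 37.1%). Peaks per 1000 differed by 0.141 between groups, and by 0.257 at equal length. Differences in peak number turned to 0.5 at Pou3f2, 2 at Foxp1 and 0.5 at Dach1 at equal length. Apart from the construction of these settings, the cause was not tested.

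The labels number the libraries 1 and 2 in both groups and do not say that a number marks a pair. Deviations of same-numbered libraries were uncorrelated (r = -0.0273 over 14634 regions, which are not replicates). With the replicate block the counts were 5 control-specific and 0 Cre-specific regions, the same by construction, and 0 of 8 shared regions weaker (27.1%) and 5 of 8 stronger (27.4%) after AAV-Cre.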
